A study of Mus musculus with 3 samples.

Results

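Ppargc1a encodes PGC-1alpha, a transcriptional coactivator, and was described here together with 9 genes that act beside it: its relative Ppargc1b, the fatty-acid receptors Ppara and Ppard, the estrogen-related receptors Esrra, Esrrb and Esrrg, the mitochondrial factors Tfam and Nrf1, and the muscle regulator Perm1. The 10 genes were taken by symbol from the 30415 symbols of the count matrices, and all 10 had UMIs in all 3 libraries. They were chosen by their levels in these libraries, as UMIs (counted RNA molecules) scaled to 1000000 per library or cell set, over all deposited cells and in cells with cardiomyocyte markers. Levels and ratios on that basis are therefore a description. Below, CPM stands for UMIs per 1000000 UMIs.

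PGC-1alpha has no DNA-binding domain of its own. It docks on nuclear receptors, among them PPARalpha and the ERR proteins, and on NRF1, and recruits enzymes that open chromatin and start transcription. In heart muscle this network keeps up the genes of fatty-acid oxidation, the Krebs cycle and the respiratory chain, and through TFAM the copying and transcription of mitochondrial DNA. Ppargc1a itself answers to cyclic AMP, calcium and AMP kinase signals and to its own protein through MEF2 and ERR.

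The series holds single-cell 3′ RNA libraries of hearts from NOD/SCID mice, which lack functional T and B cells. By its title the PD1/PEM library comes from mice given pembrolizumab, an antibody to PD-1, the PDL1/ATZ library from mice given atezolizumab, an antibody to PD-L1, and the isotype library from mice given an isotype control antibody. The treatment tags name the opposite antibody for PD1/PEM and for PDL1/ATZ, so which antibody each library stands for cannot be settled from the labels, and both are called here by title only. In every group the mice were injected on day 0 and day 7 and the hearts taken on day 14, and 3 hearts were pooled into 1 library, so differences between mice cannot be seen and no test between groups can be made. The labels state neither the sex nor the age of the mice.

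The PD1/PEM library held 6388 cells, the PDL1/ATZ library 11599 cells and the isotype library 9510 cells, with 14766346, 15144668 and 16677883 UMIs. The libraries were not alike in quality. The median cell carried 2013.5 UMIs in PD1/PEM, 1010 UMIs in PDL1/ATZ and 1532.5 UMIs in isotype, and 26.9%, 8.04% and 27.1% of them came from mitochondrially encoded genes. The share of cells above 25% mitochondrial UMIs was 69.0% in PD1/PEM, 0.0776% in PDL1/ATZ and 72.6% in isotype. The PD1/PEM and isotype libraries shared 23 cell barcodes and PDL1/ATZ shared 0 with either. Symbols also differed: 552 symbols with at least 100 UMIs were at 0 in either PDL1/ATZ or isotype, 172 of them in PDL1/ATZ and 380 in isotype, against 0 such symbols between PD1/PEM and isotype. Whether PDL1/ATZ was counted on another gene reference was not tested. Its ratios to isotype are given with that limit, and with the median log2 ratio of all 13231 genes tested, 0.54, against 0.01 over 12582 genes for PD1/PEM.

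On GRCm38, the GENCODE M21 annotation places Ppargc1a on chromosome 5 from 51454250 to 51567726, minus strand, a span of 113.5 kb with 14 separate exon intervals. It spans 3 gene models of the same strand and 1 of the other, none of which is a symbol in the matrices. Ppara lies on chromosome 15 from 85734983 to 85802819 and Esrrb on chromosome 12 from 86361117 to 86521628, both on the plus strand and with no annotated gene inside. Perm1 is the shortest of the 10 at 5.44 kb, on chromosome 4 from 156215868 to 156221307. Esrra overlaps Trmt112 on the opposite strand, so its reads can be told from those of that gene only if strand was used in counting, which the labels do not state. Genes spanning 100 to 500 kb had a median log2 ratio of 0.09 in PD1/PEM and 0.75 in PDL1/ATZ, each over isotype. Whether gene length has a part in the Ppargc1a level was not tested.

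The start regions of 4 genes that were at least 1.5-fold lower than isotype in both antibody libraries over all deposited cells are printed below, since these genes were low in the same libraries. Ppargc1b met the same limit, but no start region of it was available, so it was not searched. Each runs from 250 bases before the annotated start to 50 bases from it, 5′ to 3′ on the gene's own strand, from RefSeq on GRCm38.p6, and capitals mark matches to the motifs searched. They are Ppargc1a at chr5:51567676-51567975 (minus strand), Ppara at chr15:85735526-85735825 (plus strand), the more upstream of the annotated starts of Esrrb at chr12:86360867-86361166 (plus strand), and Perm1 at chr4:156215677-156215976 (plus strand).
Ppargc1a: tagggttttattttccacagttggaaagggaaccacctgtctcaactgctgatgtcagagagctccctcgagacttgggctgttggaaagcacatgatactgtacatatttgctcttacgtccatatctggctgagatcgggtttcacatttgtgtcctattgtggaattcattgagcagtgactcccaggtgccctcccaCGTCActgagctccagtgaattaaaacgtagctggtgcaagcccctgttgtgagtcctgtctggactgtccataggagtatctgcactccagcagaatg
Ppara: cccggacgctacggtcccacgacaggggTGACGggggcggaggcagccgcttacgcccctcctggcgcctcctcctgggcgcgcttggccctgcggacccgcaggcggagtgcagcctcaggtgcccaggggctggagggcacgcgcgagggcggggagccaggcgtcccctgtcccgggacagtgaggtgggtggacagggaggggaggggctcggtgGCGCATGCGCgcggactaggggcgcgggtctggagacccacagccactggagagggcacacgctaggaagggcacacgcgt
Esrrb: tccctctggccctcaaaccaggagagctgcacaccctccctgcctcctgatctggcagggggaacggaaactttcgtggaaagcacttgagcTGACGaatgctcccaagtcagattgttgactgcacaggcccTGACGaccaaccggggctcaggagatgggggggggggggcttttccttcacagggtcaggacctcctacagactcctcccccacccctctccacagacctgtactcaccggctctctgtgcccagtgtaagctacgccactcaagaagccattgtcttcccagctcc
Perm1: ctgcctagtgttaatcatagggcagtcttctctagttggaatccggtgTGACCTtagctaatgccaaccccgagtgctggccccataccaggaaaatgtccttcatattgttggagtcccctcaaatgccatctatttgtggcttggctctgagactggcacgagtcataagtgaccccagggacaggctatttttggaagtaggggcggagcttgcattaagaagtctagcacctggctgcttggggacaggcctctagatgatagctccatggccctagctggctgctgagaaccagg

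The motifs searched, on both strands, were the ERR element TCAAGGTCA, the nuclear receptor core AGGTCA (contained in the ERR and PPAR elements), the PPAR element of AGGTCA repeated after 1 base, the cyclic AMP element TGACGTCA with its core TGACG, the palindromic NRF1 site, the GABP site CCGGAAG and the A/T-rich MEF2 sites. The Ppargc1a window held the TGACG core once, on the opposite strand 49 to 45 bases before the start, a core found in 20.8% of 32851 start regions of the same length. The Ppara window held an NRF1 site 31 to 22 bases before the start, found in 0.971% of start regions, and a TGACG core. The Esrrb window held the TGACG core at 2 places, and the Perm1 window held the AGGTCA core 202 to 197 bases before the start, on the opposite strand, a core found in 16.3% of start regions. No full ERR, PPAR or cyclic AMP element lay in these 4 windows, and base composition differed, with 48.7% G and C in Ppargc1a and 74.7% in Ppara against a median of 52.7%. The TGACG core also lay in the start region of Ppard, 4 to 0 bases before the start, a gene that was not lower in either antibody library over all cells, and no motif searched was in all 4 windows.

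Ppargc1a was the member set furthest from isotype in both antibody libraries. Over all deposited cells its level was 519.8 CPM in PD1/PEM (7675 UMIs) and 51.2 in PDL1/ATZ (775 UMIs), against 1415 in isotype (23606 UMIs). That is 2.72-fold lower in PD1/PEM (95% interval 2.65 to 2.79) and 27.7-fold lower in PDL1/ATZ (25.7 to 29.7). These intervals, and all others here, cover counting error in single libraries and say nothing of variation between mice. Among genes ordered by ratio, Ppargc1a had rank 12 from the lowest of 12582 in PD1/PEM and rank 3 of 13231 in PDL1/ATZ. Below it in PD1/PEM were, from the lowest, Bmp10, Nppb, 5830418P13Rik, Sox18, Gm13601, Nppa, Syt12, Tmem82, Flnc, Gm26772 and Otud1. Of these, Nppa and Nppb are natriuretic peptide genes and Bmp10 is an atrial growth factor gene. In PDL1/ATZ Ptp4a1 and Gm13305 lay below it. Ptp4a1 was at 73.5 CPM in PD1/PEM and 1.45 CPM in PDL1/ATZ, against 81.2 CPM in isotype, so it stood apart in PDL1/ATZ alone. The untested possibility of another gene reference applies to the 27.7-fold difference of Ppargc1a as well. Since sums over all cells hold every cell type, fewer muscle cells and less Ppargc1a RNA per muscle cell cannot be told apart in them.

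**Figure D1:**
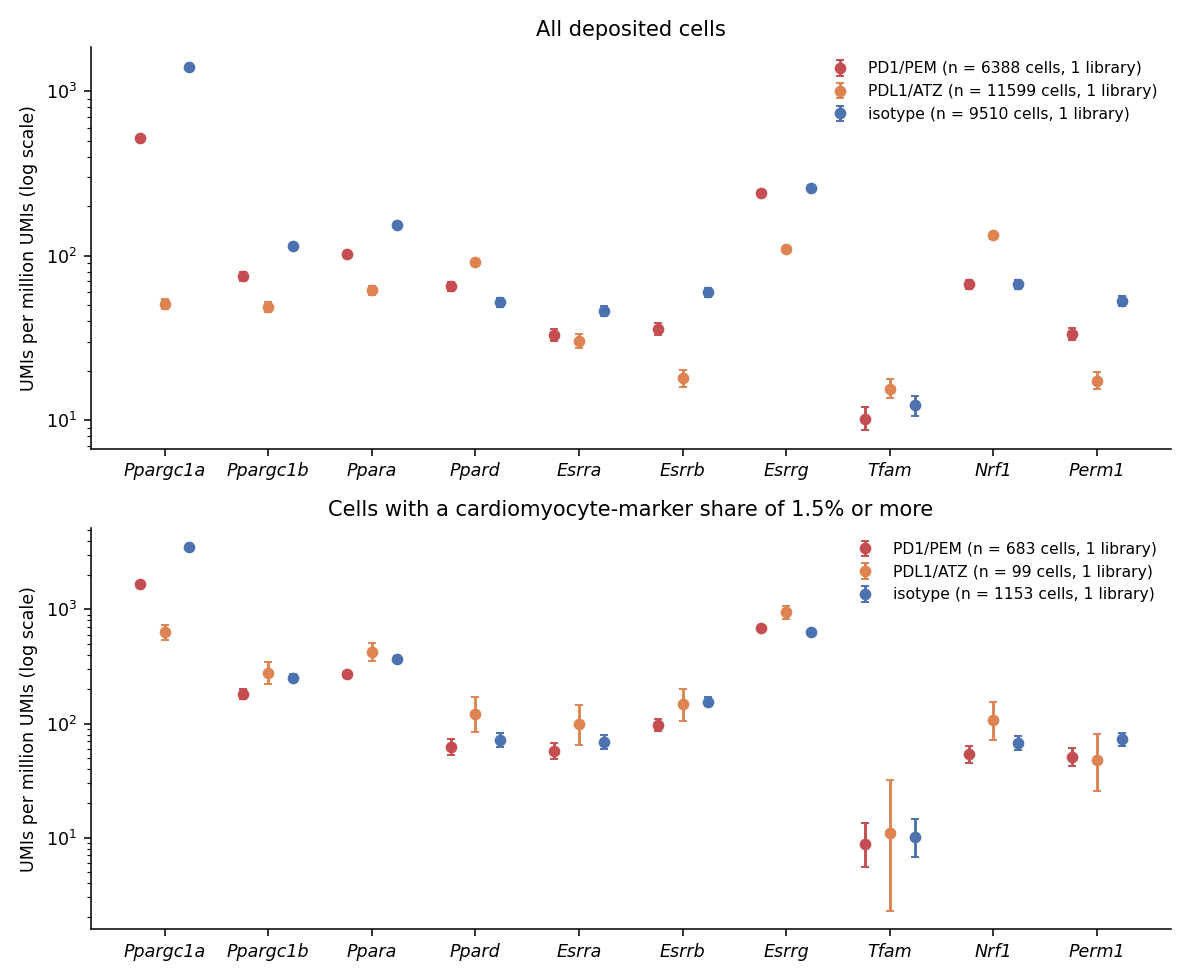
Levels of the 10 genes in CPM (log axis) in the PD1/PEM, PDL1/ATZ and isotype libraries, over all deposited cells (top) and in cells whose cardiomyocyte-marker UMIs were 1.5% or more of nuclear-gene UMIs (bottom); points are single libraries and bars 95% counting intervals. Ppargc1a lies at 519.8, 51.2 and 1415 in the top panel, and in the bottom panel only Ppargc1a of the 10 stays more than 2-fold lower in both antibody libraries.

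Its relative Ppargc1b, which coactivates many of the same receptors, was at 75.0 CPM in PD1/PEM and 48.9 in PDL1/ATZ, against 114.4 in isotype, 1.53-fold (1.42 to 1.64) and 2.34-fold (2.15 to 2.55) lower. Perm1, a striated-muscle gene induced by PGC-1 and ERR proteins, was at 33.5 in PD1/PEM and 17.4 in PDL1/ATZ, against 53.0 in isotype, 1.58-fold (1.42 to 1.77) and 3.04-fold (2.65 to 3.502) lower. Both genes were lower in both libraries, by much less than Ppargc1a.

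Among the receptors, Ppara, which drives cardiac fatty-acid oxidation genes, was at 101.9 CPM in PD1/PEM and 61.5 in PDL1/ATZ, against 154.0 in isotype, 1.51-fold (1.42 to 1.61) and 2.502-fold (2.32 to 2.70) lower. Ppard, the more widely expressed receptor of the family, went the other way, with 65.3 in PD1/PEM and 91.1 in PDL1/ATZ against 52.1 in isotype, ratios of 1.253 (1.14 to 1.37) and 1.749 (1.61 to 1.91). In PDL1/ATZ the Ppard ratio exceeded the median gene by only 0.27 on the log2 scale.

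The estrogen-related receptors bind as orphan receptors and rely on PGC-1 proteins for activity. Esrrb was at 35.8 CPM in PD1/PEM and 18.03 in PDL1/ATZ, against 60.0 in isotype, 1.68-fold (1.51 to 1.87) and 3.33-fold (2.91 to 3.82) lower. Esrra was at 33.0 in PD1/PEM and 30.4 in PDL1/ATZ, against 45.9 in isotype, 1.39-fold (1.24 to 1.56) and 1.51-fold (1.35 to 1.70) lower. Esrrg, the form prominent in heart, was at 242.4 in PD1/PEM and 109.8 in PDL1/ATZ, against 259.7 in isotype. It was thus close to isotype in PD1/PEM, 1.07-fold lower (1.03 to 1.12), and 2.37-fold lower (2.23 to 2.505) in PDL1/ATZ.

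The mitochondrial factors did not follow. Nrf1, which activates nuclear genes of the respiratory chain, was at 67.2 CPM in PD1/PEM and 132.9 in PDL1/ATZ, against 67.0 in isotype, ratios of 1.003 (0.920 to 1.09) and 1.98 (1.84 to 2.14). Tfam, which packs and transcribes mitochondrial DNA, had only 151 UMIs in PD1/PEM and 236 in PDL1/ATZ, against 205 in isotype, levels of 10.2, 15.6 and 12.3 CPM with intervals that overlap between PD1/PEM and isotype.

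In all, 5 of the 10 genes were at least 1.5-fold lower and 0 higher in PD1/PEM, where 3.51% of all 12582 genes tested were that much lower and 4.89% that much higher. In PDL1/ATZ 7 were lower and 2 higher, where 5.51% of 13231 genes were lower and 47.1% higher. The median log2 ratio of the 10 genes was -0.54 in PD1/PEM, against 0.01 over all genes, and -1.23 in PDL1/ATZ, against 0.54 over all genes. Both comparisons share the isotype library. Every gene passed the minimum of 100 UMIs over the 2 libraries compared. These counts describe genes proposed with those levels known, and nothing is read from them.

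**Figure D2:**
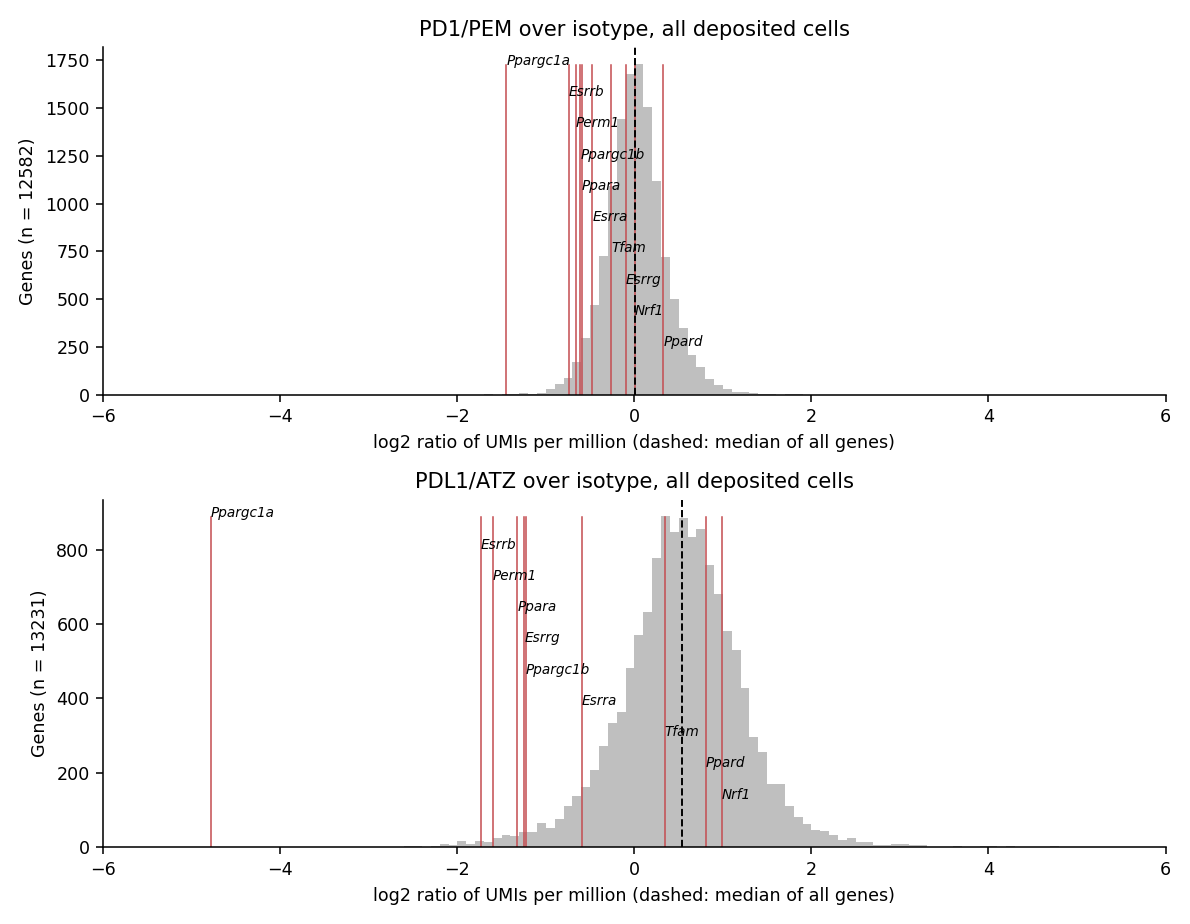
Number of genes (y axis) by log2 ratio of CPM (x axis) for PD1/PEM over isotype (top) and PDL1/ATZ over isotype (bottom), over all deposited cells; red lines are the 10 genes, the dashed line is the median of all genes, and values beyond 6 are drawn at 6. Ppargc1a lies at -1.45 in PD1/PEM and -4.79 in PDL1/ATZ, left of the other 9 genes in both.

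Markers of heart muscle also differed between the libraries. The summed level of 20 cardiomyocyte markers was 6014 CPM in PD1/PEM and 2767 in PDL1/ATZ, against 7198 in isotype, and that of 16 endothelial markers 5881, 10675 and 4762, with 0 markers of either list at 0. Median log2 ratios were -0.30 for the cardiomyocyte and 0.24 for the endothelial markers in PD1/PEM, and -1.75 and 0.98 in PDL1/ATZ. Atrial muscle markers summed to 1897 in PD1/PEM and 2234 in PDL1/ATZ, against 3074 in isotype, and ventricular markers to 1532, 1723 and 2480. Of 12 immediate early genes, which are induced by tissue dissociation among other stimuli, 7 were at least 1.5-fold higher in PD1/PEM, with a median log2 ratio of 0.997, where 4.89% of all genes were. In PDL1/ATZ 2 of 12 were, with a median of 0.10, where 47.1% of all genes were. Their part in the lower Ppargc1a level was not tested beyond the comparisons that follow.

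Set against muscle RNA, Ppargc1a stayed lower than isotype by more than any of its partners. Per 1000 UMIs of the cardiomyocyte markers there were 86.4 Ppargc1a UMIs in PD1/PEM and 18.5 in PDL1/ATZ, against 196.6 in isotype, 2.28-fold and 10.6-fold lower. Per 1000 UMIs of 12 abundant cardiomyocyte transcripts (sarcomere, calcium handling and myoglobin) there were 18.4 in PD1/PEM and 3.28 in PDL1/ATZ, against 36.4 in isotype. On the marker scale Ppara was at 16.9 in PD1/PEM and 22.2 in PDL1/ATZ, against 21.4 in isotype. Esrrg was at 40.3 in PD1/PEM and 39.7 in PDL1/ATZ, against 36.1 in isotype. Ppargc1b was at 12.5 in PD1/PEM and 17.7 in PDL1/ATZ, against 15.9 in isotype. Esrrb, at 5.96 in PD1/PEM and 6.51 in PDL1/ATZ against 8.34 in isotype, and Perm1, at 5.56 and 6.30 against 7.36, were the partners that stayed lowest relative to isotype in PD1/PEM, where Esrrb was 1.40-fold lower. Esrra was at 5.48 in PD1/PEM and 10.98 in PDL1/ATZ, against 6.38 in isotype, so it lay above isotype in PDL1/ATZ. Ppard, Nrf1 and Tfam lay further above it there, at 32.9, 48.0 and 5.63 against 7.24, 9.31 and 1.71. This scale counts partner UMIs from every cell type, so its values are not levels per muscle cell.

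Summed Ppargc1a UMIs were also divided by the summed UMIs of a partner in the same set of cells, which needs no scaling between libraries. Over all deposited cells these quotients follow from the levels given above and add no separate observation. Over all deposited cells there were 5.10 Ppargc1a UMIs per Ppara UMI in PD1/PEM (4.83 to 5.40) and 0.832 in PDL1/ATZ (0.755 to 0.916), against 9.19 in isotype (8.82 to 9.58). Per Esrrg UMI there were 2.14 in PD1/PEM (2.06 to 2.23) and 0.466 in PDL1/ATZ (0.427 to 0.508), against 5.45 in isotype (5.27 to 5.63). The intervals of the 3 libraries did not overlap for either partner. In cells with a cardiomyocyte-marker share of 2.5% or more, Ppargc1a UMIs per Ppara UMI were 9.38 in PD1/PEM (7.86 to 11.3) and 2.19 in PDL1/ATZ (1.57 to 3.07), against 11.1 in isotype (9.70 to 12.8), so PD1/PEM and isotype overlapped there. Per Esrrg UMI they were 3.03 in PD1/PEM and 0.881 in PDL1/ATZ, against 6.19 in isotype, and did not overlap.

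Single cells carried mixed RNA, which limits how far muscle cells could be isolated. The median cell held UMIs of 5 cardiomyocyte and 7 endothelial markers in PD1/PEM, 2 and 7 in PDL1/ATZ, and 6 and 5 in isotype. Of cells with at least 3 cardiomyocyte markers, 98.0% in PD1/PEM, 98.8% in PDL1/ATZ and 91.1% in isotype also held at least 3 endothelial markers. Cells with at least 3 cardiomyocyte markers and fewer than 3 of every other cell type numbered 57 in PD1/PEM, 42 in PDL1/ATZ and 472 in isotype. They were shallow, with median depths of 871, 761.5 and 871 UMIs. Their cardiomyocyte markers summed to 9528 CPM in PD1/PEM, 9042 in PDL1/ATZ and 8405 in isotype, against 6014, 2767 and 7198 over all cells. The limit thus raised muscle RNA least in isotype and most in PDL1/ATZ. In these cells Ppargc1a was at 660.1 CPM in PD1/PEM (37 UMIs) and 307.0 in PDL1/ATZ (11 UMIs), against 1600 in isotype (704 UMIs). It was 2.42-fold lower in PD1/PEM (1.74 to 3.47) and 5.21-fold lower in PDL1/ATZ (2.90 to 10.5). Of the partners only Esrrg reached 100 UMIs there, at 428.2 in PD1/PEM and 474.4 in PDL1/ATZ against 290.9 in isotype, with intervals of the ratios that include 1. The other 8 genes were too thinly counted for a statement at this depth. Of genes tested in these cells, 15.8% of 613 were at least 1.5-fold lower and 11.6% higher in PD1/PEM. In PDL1/ATZ 18.2% of 587 were lower and 29.5% higher. Ppargc1a was the 1 member counted as lower in each library, and Esrrg was higher in PDL1/ATZ at a ratio of 1.63, which turned to 0.978 in cells with at most 25% mitochondrial UMIs and to 0.588 with no limit on markers of other cell types.

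A wider set was therefore taken, of cells in which the cardiomyocyte markers made up at least 1.5% of nuclear-gene UMIs, a limit chosen after Ppargc1a had been seen to vary with that share. It held 683 cells in PD1/PEM, 99 in PDL1/ATZ and 1153 in isotype, and 432, 66 and 933 cells lay within 0.25 percentage points of that limit. Ppargc1a was at 1666 CPM in PD1/PEM and 631.7 in PDL1/ATZ, against 3514 in isotype, 2.11-fold (2.03 to 2.19) and 5.56-fold (4.78 to 6.51) lower. The cardiomyocyte markers themselves, used for the choice, summed to 16062 in PD1/PEM and 22865 in PDL1/ATZ against 15893 in isotype in these cells. Endothelial markers summed to 3749 in PD1/PEM and 4286 in PDL1/ATZ, against 3306 in isotype, so other RNA remained. Median log2 ratios of the atrial and ventricular muscle markers in these cells were -0.44 and -0.56 in PD1/PEM and -1.12 and -0.39 in PDL1/ATZ. The atrial genes were mixed: 4 of 10 were at least 1.5-fold lower and 2 higher in PD1/PEM, and 6 of 9 and 1 in PDL1/ATZ. Of all genes in these cells, 5.95% were lower and 7.23% higher in PD1/PEM, and 14.0% and 29.8% in PDL1/ATZ. Each ventricular median rested on 3 genes. In isotype both lists summed to less here, 2748 and 2337 CPM, than in the cells with endothelial markers described below, 3289 and 2541. The part of these markers in the Ppargc1a difference was not tested.

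In PDL1/ATZ most partners no longer lay low in these cells on the scale of all UMIs. Ppargc1b was at 279.1 CPM in PDL1/ATZ against 251.6 in isotype, Ppara at 426.0 against 364.7, and Esrrb at 146.9 against 155.6, and the intervals of all 3 ratios include 1. Esrrg was at 943.8 in PDL1/ATZ against 632.4 in isotype, a ratio of 1.49 (1.30 to 1.70), where the median gene had a log2 ratio of 0.25. The median mitochondrial share in this set was 4.41% in PDL1/ATZ and 24.9% in isotype. On nuclear-gene UMIs Esrrg was at 1001 CPM in PDL1/ATZ against 828.2 in isotype. Ppargc1b, at 296.0 against 329.4, Ppara, at 451.8 against 477.6, and Esrrb, at 155.8 against 203.7, lay below isotype on that scale, with overlapping intervals. Perm1 rested on 13 UMIs in PDL1/ATZ and its interval includes 1. In PD1/PEM, Esrrb was at 97.3 against 155.6 in isotype, 1.60-fold lower (1.36 to 1.88), Ppargc1b at 181.8 against 251.6, Ppara at 269.0 against 364.7, and Esrrg at 687.4 against 632.4. Tfam did not reach 100 UMIs in this set. Of the other 9 genes, 2 lay 1.5-fold or more below isotype and 0 above it in PD1/PEM, where 5.95% of 6255 genes were lower and 7.23% higher. In PDL1/ATZ 2 were lower, Ppargc1a and Perm1 with its 13 UMIs, and 2 higher, where 14.0% of 4363 genes were lower and 29.8% higher. The 2 higher genes, Ppard and Nrf1, had log2 ratios of 0.47 and 0.38 on nuclear-gene UMIs, which is below 1.5-fold.

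Across the whole range of muscle RNA, Ppargc1a was lower in both antibody libraries in each of 6 groups of cells. In cells with a cardiomyocyte-marker share under 0.25%, it was at 190.5 CPM of nuclear-gene UMIs in PD1/PEM and 32.6 in PDL1/ATZ, against 916.2 in isotype. In cells with a share of 2.5% or more, it was at 3402 in PD1/PEM (116 cells) and 1194 in PDL1/ATZ (30 cells), against 6569 in isotype (167 cells). In each library the level was higher in cells with more muscle RNA. The distance to isotype was smaller in the cells richest in muscle RNA: for PDL1/ATZ it was 5.50-fold (4.57 to 6.67) against 28.1-fold (23.9 to 33.1) in the cells poorest in it, and for PD1/PEM it was 1.93-fold (1.80 to 2.07) against 4.81-fold (4.12 to 5.62).

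**Figure D3:**
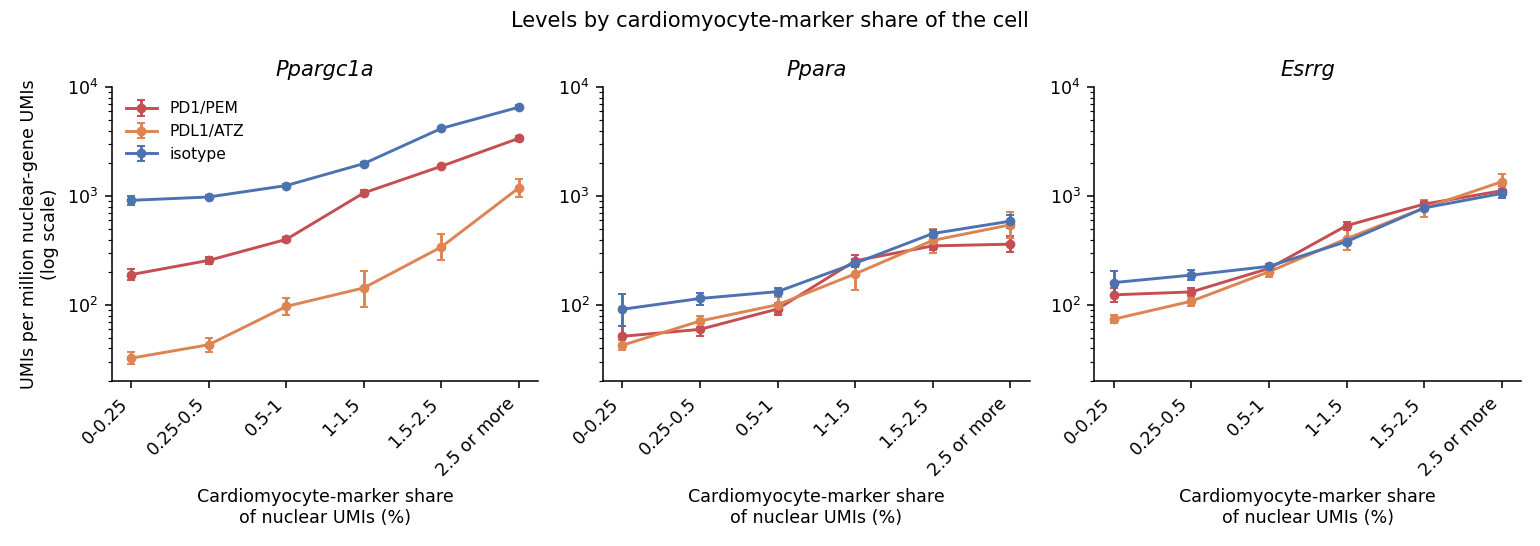
Levels of Ppargc1a, Ppara and Esrrg in CPM of nuclear-gene UMIs (log axis) by the share of nuclear-gene UMIs that come from cardiomyocyte markers, in percent, for the PD1/PEM, PDL1/ATZ and isotype libraries; points are sums over cells of 1 library and bars 95% counting intervals. In cells with the highest share Ppargc1a lies at 3402, 1194 and 6569, while Esrrg lies at 1122, 1356 and 1060.

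Cells with endothelial markers and fewer than 3 of every other type also carried Ppargc1a UMIs, at 226.5 CPM in PD1/PEM, 30.8 in PDL1/ATZ and 856.3 in isotype. Whether these UMIs came from the cells themselves or from stray muscle RNA was not tested. After thinning each cell to 700 UMIs, 12.9% of such cells in PD1/PEM, 2.41% in PDL1/ATZ and 43.2% in isotype had at least 1 Ppargc1a UMI. Over all deposited cells the thinned shares were 19.3% in PD1/PEM, 3.07% in PDL1/ATZ and 49.5% in isotype, with 133, 413 and 483 shallower cells left out (40.7%, 5.17% and 72.4% unthinned). Endothelial-marker cells thus held Ppargc1a UMIs less often than cells in all, and no share of expressing cells is read from these values. Their median depth was 1047 UMIs in PD1/PEM, 847 in PDL1/ATZ and 852.5 in isotype. In cells with a marker share of 1.5% or more the thinned shares were 49.0% in PD1/PEM (45.2 to 52.8), 21.4% in PDL1/ATZ (13.8 to 30.9) and 77.4% in isotype (74.8 to 79.8), above the endothelial-marker cells of the same library in each case. The ratio of Ppargc1a to Esrrg UMIs in endothelial-marker cells, 2.95 in PD1/PEM, 0.498 in PDL1/ATZ and 6.15 in isotype, was near that of all cells in the same library.

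Mitochondrial content and depth were examined in the same way. In cells with at most 25% mitochondrial UMIs Ppargc1a was at 836.5 CPM in PD1/PEM (1981 cells) and 50.1 in PDL1/ATZ (11590 cells), against 2021 in isotype (2602 cells). In cells above that limit it was at 369.7 in PD1/PEM (4407 cells), against 1147 in isotype (6908 cells). In the 9 cells of PDL1/ATZ above the limit it was at 1016 (17 UMIs), so their interval of 1.13-fold lower (0.705 to 1.94) includes isotype. Within cells of under 1000, 1000 to 2000, 2000 to 4000 and 4000 or more UMIs it was 4.73-fold, 3.94-fold, 3.34-fold and 2.43-fold lower in PD1/PEM than in isotype, and between 21.8-fold and 27.8-fold lower in PDL1/ATZ.

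Within the PD1/PEM and isotype libraries, some partners were higher in cells with more Ppargc1a. In PD1/PEM cells thinned to 700 UMIs, Esrrg was at 564.8 CPM in cells with 3 or more Ppargc1a UMIs (129 cells) and 165.6 in cells with 0 (5047 cells). In isotype it was at 502.8 in cells with 3 or more (804 cells) and 185.4 in cells with 0 (4562 cells). Ppara was at 287.9 against 71.9 in PD1/PEM and 289.6 against 113.4 in isotype, and Ppargc1b at 210.4 against 60.9 and 209.7 against 83.6. Nrf1 was at 77.5 against 66.0 in PD1/PEM and 51.5 against 68.0 in isotype, with overlapping intervals in both. The cardiomyocyte markers moved with Ppargc1a as well, at 14806 in cells with 3 or more Ppargc1a UMIs against 4548 in cells with 0 in PD1/PEM, and 11789 against 5553 in isotype. Their part in the differences between partners was not tested.

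**Figure D4:**
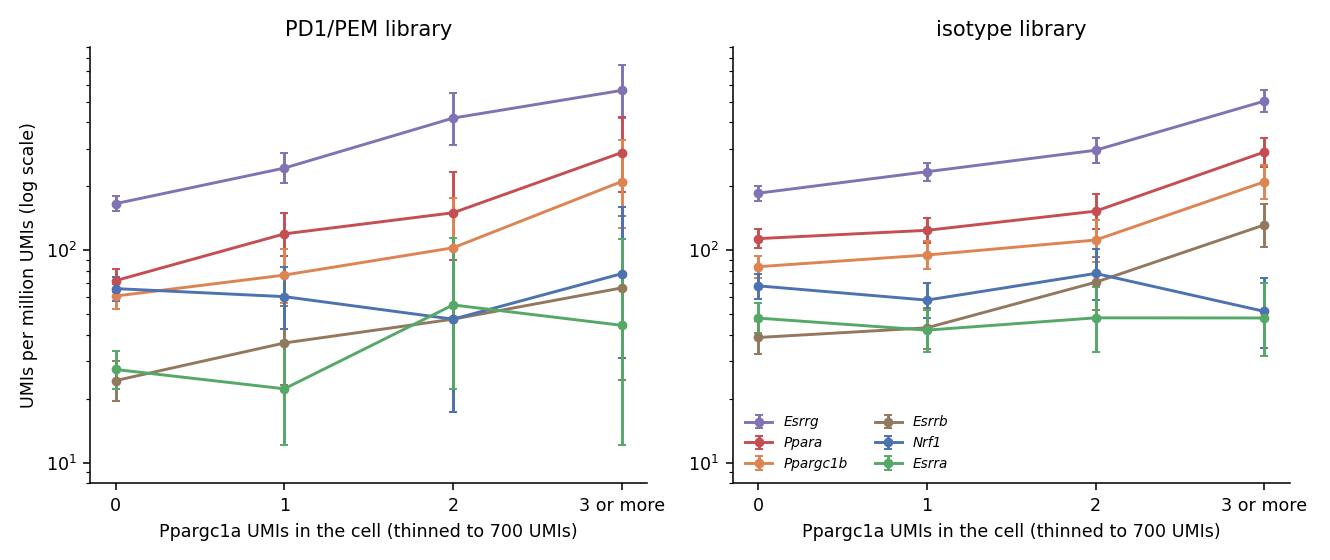
Levels of 6 partners in CPM (log axis) in cells with 0, 1, 2 or 3 or more Ppargc1a UMIs, after each cell was thinned to 700 UMIs, in the PD1/PEM and isotype libraries; points are sums over cells and bars 95% counting intervals. Esrrg, Ppara and Ppargc1b lie at 564.8, 287.9 and 210.4 in PD1/PEM cells with 3 or more, and Nrf1 shows no such order.

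The genes whose pattern was closest to that of Ppargc1a were named by the root mean square difference of centred log2 levels over 9 points, 3 libraries by 3 sets of cells (cardiomyocyte-marker, endothelial-marker and remaining cells), among 9803 genes. They were Flnc (filamin C, a sarcomere cross-linker, difference 0.88), Mypn (myopalladin of the Z-disc, 0.90), D830005E20Rik (0.93), Xirp1 (an actin-binding Xin protein, 0.99), Abra (an actin-binding protein of striated muscle, 1.03), Ryr2 (the calcium release channel, 1.03), Gm35041 (1.03) and Alpk2 (a kinase, 1.07). Flnc, for one, was at 92.6 CPM in PD1/PEM and 32.1 in PDL1/ATZ, against 258.8 in isotype. Among the other 9 genes Esrrb had the closest pattern, at rank 20, followed by Ppara at 68, Ppargc1b at 75 and Esrrg at 101, while Ppard lay at 3893, Nrf1 at 4609, Esrra at 5629, Tfam at 7997 and Perm1 last at 8041. In cardiomyocyte-marker cells of PD1/PEM, PDL1/ATZ and isotype, Perm1 had 0, 0 and 26 UMIs and Tfam 0, 0 and 3. Esrra had 1, 0 and 22 there, and Esrrb 5, 1 and 33. Ranks of genes so thinly counted rest in part on counts at or near 0 and are not read as likeness.

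Downstream and neighbouring genes were read from 6 lists of 177 genes. The Krebs cycle, respiration and energy-transfer genes were lower as a group in PD1/PEM: all 43 passed the minimum of 100 UMIs, all 43 had ratios below 1, 17 were at least 1.5-fold lower and 0 higher, and the median log2 ratio was -0.54, where 3.51% of all genes were that much lower and the median was 0.01. Citrate synthase (Cs) was at 85.2 CPM in PD1/PEM against 152.8 in isotype, 1.79-fold lower (1.68 to 1.92). Idh2, the mitochondrial NADP-linked isocitrate dehydrogenase, was at 195.7 against 349.7, Idh3a, a subunit of the NAD-linked enzyme, at 68.3 against 115.2, and Ogdh, of the oxoglutarate dehydrogenase complex, at 287.1 against 461.4. In cells with a marker share of 1.5% or more all 43 were again below 1 in PD1/PEM, 10 at least 1.5-fold lower and 0 higher, with a median of -0.49, where 5.95% of all genes were lower. The list summed to 7554 CPM in PD1/PEM against 10630 in isotype there. In endothelial-marker cells it summed to 8048 against 11306, so the difference was not particular to cells rich in muscle RNA. In PDL1/ATZ over all cells 18 were lower and 0 higher, with a median of -0.52, where 5.51% of all genes were lower and 47.1% higher. The lower genes were led by Got1, the cytosolic aspartate aminotransferase, at 80.7 against 199.8, and Ckmt2, the mitochondrial creatine kinase of the sarcomere, at 190.6 against 457.2.

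The fatty-acid and PPAR target genes differed less in PD1/PEM. Of 36, 32 passed the minimum in PD1/PEM, 2 were at least 1.5-fold lower and 0 higher, and the median log2 ratio was -0.34. With 3.51% of all genes that much lower, 2 of 32 is near the share of all genes. The lower genes were Fabp3, the heart fatty-acid binding protein, at 481.4 CPM in PD1/PEM against 741.4 in isotype, and Plin5, a lipid-droplet coat protein, at 9.55 against 16.2. In PDL1/ATZ 33 passed, 11 were lower and 3 higher (Cpt1b among them), with a median of -0.40, where 5.51% of all genes were lower and 47.1% higher. Pdk4, which restrains pyruvate oxidation, was at 13.7 in PDL1/ATZ against 67.4 in isotype, 4.91-fold lower (4.23 to 5.72), and Slc27a1, a fatty-acid transporter, at 24.5 against 66.7. Vldlr, a lipoprotein receptor, was at 36.1 against 91.1, and Hadha, of the mitochondrial trifunctional protein, at 113.5 against 236.1. Plin2 and Ehhadh were higher, with ratios of 2.08 and 2.32. Cpt1b, the muscle carnitine palmitoyltransferase, had 16 UMIs in PD1/PEM and 665 in PDL1/ATZ, against 14 in isotype, a pattern that sets PDL1/ATZ apart from both other libraries as the symbols at 0 do, so its ratio is not read as a difference in expression.

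The abundant cardiomyocyte transcripts, those of the sarcomere and calcium handling with myoglobin, were lower too. All 12 had ratios below 1 in PD1/PEM, with 4 at least 1.5-fold lower, 0 higher and a median log2 ratio of -0.49, where 3.51% of all genes were lower. Those 4 were Actc1, cardiac actin, at 1138 CPM in PD1/PEM against 2082 in isotype, Myl3, a ventricular myosin light chain, at 557.9 against 993.2, Tnni3, cardiac troponin I, at 780.6 against 1199, and Mb, myoglobin, at 1593 against 2407. In PDL1/ATZ 10 of 12 were lower and 0 higher, where 5.51% of all genes were lower, with a median of -1.19, among them Ryr2 at 717.2 against 3195 and the giant sarcomere spring Ttn at 2972 against 11782.

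The genes that copy, transcribe and maintain mitochondrial DNA held 0 members past 1.5-fold in either direction in PD1/PEM, of 24 tested, with a median log2 ratio of -0.15. Of all genes tested in PD1/PEM, 3.51% were that much lower and 4.89% higher. In PDL1/ATZ 0 of 24 were lower and 4 higher, where 5.51% of all genes were lower and 47.1% higher. The median of 0.34 lay below the 0.54 of all genes. Of 42 upstream regulators, coactivators and corepressors, 1 was lower and 1 higher in PD1/PEM, with a median of -0.02. Both counts are near the 3.51% lower and 4.89% higher of all genes. Prkag2, a regulatory subunit of AMP kinase, was at 123 CPM in PD1/PEM and 116.8 in PDL1/ATZ, against 209.3 in isotype. Mef2c, a muscle and endothelial transcription factor, was at 297.4 in PD1/PEM and 480.8 in PDL1/ATZ, against 193.2 in isotype. In PDL1/ATZ 4 of 42 regulators were lower, where 5.51% of all genes were, and 11 of 42 were higher, where 47.1% of all genes were. The lower ones included Lpin1, a coactivator of PPARalpha and PGC-1alpha, at 42.5 against 91.6, and Prkaa2, a catalytic subunit of AMP kinase, at 38.6 against 66.9.

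Of 18 other nuclear receptors and Klf factors, 1 was lower and 1 higher in PD1/PEM, with a median log2 ratio of 0.14. Both counts are near the 3.51% lower and 4.89% higher of all genes. Pparg, the fat-cell member of the PPAR family, was at 142.1 CPM in PD1/PEM against 214.0 in isotype, 1.51-fold lower (1.43 to 1.59), and at 278 in PDL1/ATZ. Nr3c2, the mineralocorticoid receptor, was at 200.9 in PD1/PEM and 313.6 in PDL1/ATZ, against 98.2 in isotype. In PDL1/ATZ 2 of 18 were lower, Klf15 and Rxrg, where 5.51% of all genes were. Higher were 9 of 18, a share near the 47.1% of all genes, and the median was 0.55 against 0.54 over all genes.

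**Figure D5:**
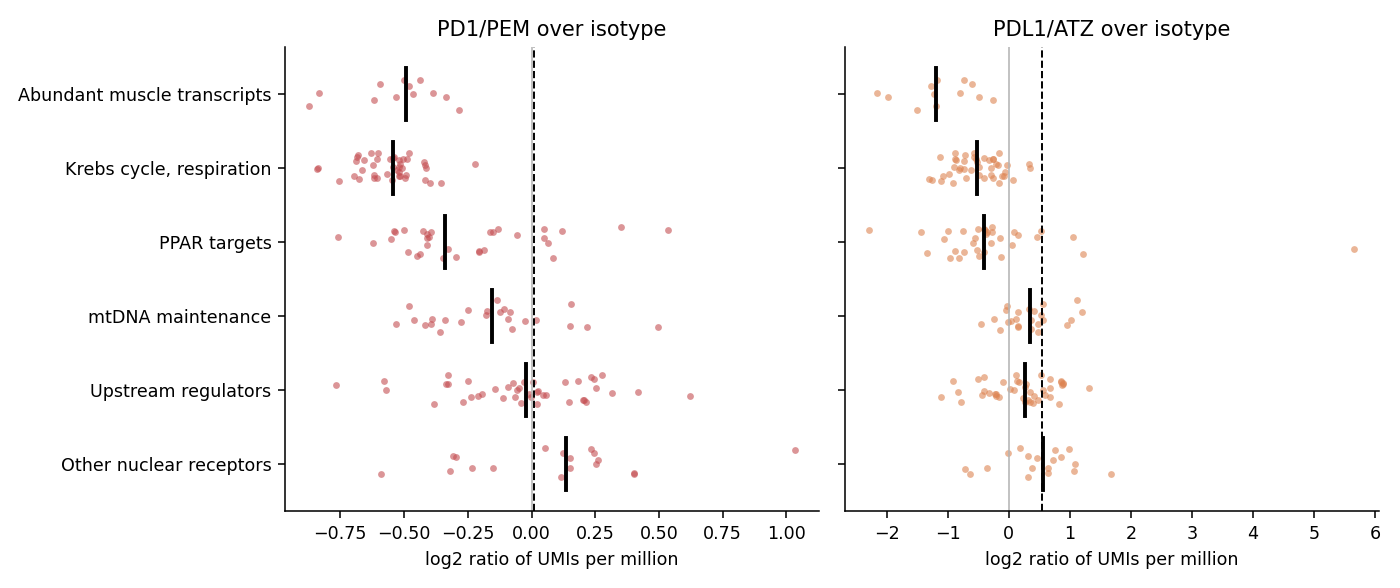
Log2 ratios of CPM over all deposited cells (x axis) of the genes in 6 lists (rows), for PD1/PEM over isotype (left) and PDL1/ATZ over isotype (right); points are genes with at least 100 UMIs over the 2 libraries, black bars list medians and the dashed line the median of all genes. All 43 genes of the Krebs cycle and respiration list lie below 0 in PD1/PEM, with a median of -0.54.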

How the data were processed

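The data are droplet single-cell RNA libraries of mouse heart, each made from 3 pooled organs. The deposited matrices hold raw UMI counts per gene and cell. Cell Ranger, Seurat and the build mm10 are named in the processing notes of the submitters, without versions or cell filters. As deposited, no cell had over 2499 genes or reached 30% mitochondrial UMIs.

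UMIs were summed over cells and scaled to 1000000 (CPM), with all cells kept and doublets not removed. Intervals are 95% exact Poisson, conditional binomial (ratios) and Clopper-Pearson (shares), for counting error only. Genes needed 100 UMIs over the 2 libraries compared, and 1.5-fold was the limit for counts. Log2 ratios use a pseudocount of 0.5 UMIs, the likeness 1 CPM. For PDL1/ATZ, 552 symbols at 0 in either library were left out after inspection of the data. Thinning used random seed 1. With 1 library per group no test was run. Cell sets rest on listed markers, at least 3 per type.

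The 10 genes, the lists and the markers were chosen with earlier results of these data known. Named list genes are up to 4 per direction past 1.5-fold, in order of the ratio interval's end closest to 1, and the likeness names the 8 nearest genes. Symbols matching GENCODE M21 numbered 29259 of 30415, and 9 of the 10 genes had a start region in the RefSeq table. The ratio step was tested on simulated data. Python 3.11.15, NumPy 2.4.6, SciPy 1.17.1 and pandas 2.3.3 were used. Alternatives were other scalings, mitochondrial limits, depths, marker limits, UMI minimums and folds.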

Additional observations from a re-analysis of the deposited data

How the results depend on the processing

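The Ppargc1a ratio over all deposited cells was 0.367 for PD1/PEM over isotype. It became 0.414 in cells with at most 25% mitochondrial UMIs, 0.324 as the mean of per-cell levels, 0.322 in cells thinned to 700 UMIs and 0.336 without the 5% of cells with the most UMIs. For PDL1/ATZ over isotype the ratio of 0.0362 became 0.0290 with nuclear-gene UMIs as the scale, 0.0249 with the median ratio over genes as the scale and 0.0248 in cells with at most 25% mitochondrial UMIs. In cells with cardiomyocyte markers the PD1/PEM ratio of 0.413 became 0.623 with at least 5 markers. There the PDL1/ATZ ratio of 0.192 became 0.508 with at least 5 markers and 0.0503 with no limit on markers of other cell types. Ppargc1a was lower in both antibody libraries under each alternative run. Esrrg, at a ratio of 1.63 for PDL1/ATZ in these cells, reversed to 0.978 in cells with at most 25% mitochondrial UMIs and to 0.588 with no limit on other markers, and the cause was not tested. Over the 6 lists, genes at least 1.5-fold lower numbered 25 in PD1/PEM, against 0 at 2-fold, and higher genes 2 against 1. Of all genes tested, 3.51% were 1.5-fold lower and 4.89% higher there. In PDL1/ATZ 45 were lower, against 77 with the nuclear scale and 17 at 2-fold, and 27 were higher, against 12 and 10. Of all genes, 5.51% were 1.5-fold lower and 47.1% higher in PDL1/ATZ. Shares of all genes at 2-fold and on the nuclear scale are not given, so nothing is read from the changed counts. Of the main results under these alternatives, 38 stayed within their counting interval or count limit and 16 moved outside it. The Ppargc1a ratio over all deposited cells moved outside it in 4 of 7 alternatives for PD1/PEM and in 3 of 7 for PDL1/ATZ. Of the other results, 315 stayed within that limit and 67 moved outside it. Cardiomyocyte-marker cells of PD1/PEM and PDL1/ATZ were too few to measure most partners, and 1 library per group leaves variation between mice unmeasured. No paired analysis was possible because each group has 1 library. No replicate could be left out for the same reason.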
